A study of Homo sapiens with 6 samples.

Results

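The antisense RNAs named after another gene (symbols ending in -AS and a number) that BT474 breast cancer cells measurably expressed were followed, each beside the gene it is named after, in cells transfected with an empty vector or with 1 of 2 variants of the long noncoding RNA NR2F1-AS1. A probe was taken when its signal stood well above background on all 6 arrays, by the scanner software's own flag. NR2F1-AS1, NR2F2-AS1 and DSCAM-AS1, whose names end the same way, were left out. This kept 618 probes for 421 antisense RNAs named after 412 genes, out of 1560 such probes for 941 antisense RNAs and of 58201 probes in all. The detection flags chose these probes, so their being detected is not a result. The size of a difference between groups was not used, but the rule left out any RNA undetected in a group. It left out 63 probes for 60 antisense RNAs that were detected in some group and undetected in another. The 2-fold counts and the largest changes below therefore cover only RNAs detected in every group.

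BT474 is an established human breast cancer line positive for estrogen receptor and HER2. The Control group carried empty pcDNA3.1. BT474-Var1 cells carried pcDNA3.1/Hygro(+) with the long variant 1 of NR2F1-AS1, and BT474-Var4 cells carried pcDNA3.1-P2A-eGFP with the short variant 4. Both empty backbones served as negative controls according to the methods, which do not state which of them the Control arrays represent. Control and variant cells alike went through antibiotic selection after nucleofection, and the variant cultures grew back as colonies from few surviving cells. Each group had 2 arrays of total RNA, A and B. No source says that the A and B samples were separate cultures, so the p-values measure only the spread between these samples, which may be technical.

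A natural antisense RNA is transcribed from the strand opposite to another gene. Some start beside the start of that gene and run away from it, so that both transcripts leave a shared promoter region. Others overlap it, where pairing of the RNAs, transcription across the gene or recruited chromatin factors can raise or lower its output, and many have no known function.

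Between 47.6% and 57.5% of probes stood well above background on each array, replicates correlated at 0.993 to 0.996 across probes, and no spot was saturated. All 12 luminal epithelial markers, ERBB2 and ESR1 among them, were well above background on all 6 arrays. So were the stromal markers COL1A1 and PDGFRB, the endothelial markers VWF and CDH5 and the immune markers PTPRC and CD14. The stromal markers COL1A2, COL3A1 and LUM and the basal marker KRT5 were so on none. Of the luminal markers 3 were higher and 4 lower with variant 1 than in Control (log2 changes from -0.66 for EPCAM to 0.62 for KRT19), and 0 were higher and 5 lower with variant 4 (PGR -1.22 and TFF1 -1.03 the lowest). Their summed level, in units of the 75th percentile, was 2640 to 2670 in Control, 3230 to 3300 in BT474-Var1 and 2340 to 2360 in BT474-Var4. The summed level of the 6 stromal markers was 3.13 to 3.16, 3.68 to 3.8 and 5.53 to 5.71 in the same order, with COL1A1 higher with variant 4 (1.03), PDGFRB at -0.32 without passing and DCN above background with variant 4 only, at least 7.11-fold over Control. The basal marker KRT14 was above background in both variants and not in Control (at least 2.43-fold and 1.94-fold), the endothelial marker VWF was lower with variant 1 (-0.87), and no immune marker passed. The part of these markers in the results below was not tested. The NR2F1-AS1 probe A_22_P00006111 read -5.76 and -4.16 in Control, -1.69 and -1.52 in BT474-Var1 and 3.01 and 3.02 in BT474-Var4. Another NR2F1-AS1 probe was above background in BT474-Var1 only, at least 15.1-fold over Control. Every level here is a log2 normalized intensity, that is the log2 of the processed signal minus the 75th percentile of its array, and levels of different probes cannot be ranked against each other. All 6 arrays lay on 1 slide by their barcodes. The position number in the barcode began with 2 for the 2 BT474-Var1 arrays and with 1 for the other 4. This position and variant 1 cannot be told apart.

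The probes lay where the names place them. Of 540 probe pairs with positions in the hg19 coordinates of the array, 537 lay on opposite strands, and the strand of the antisense probe matched RefSeq (GRCh38.p14) in 487 of 487 cases that could be looked up. Both starts were listed in RefSeq for 281 of the 421 antisense RNAs, and the median distance between antisense and sense start was 915 bp. Starts lay within 1 kb of each other on opposite strands for 143 pairs and further apart for 136, and 2 pairs lay on the same strand. Of these RNAs, 81 diverged from the sense gene without overlap, 90 overlapped it at the 5′ ends, 46 overlapped it at the 3′ ends and 51 lay inside it. RefSeq now carries 81 of the 421 under another symbol, 50 of them ending in -DT for divergent transcript.

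The start regions of close pairs were rich in CG. In windows from 250 bases before to 50 bases after the start, the 143 antisense RNAs with starts within 1 kb of the sense start had a median GC content of 68.3% and 30 CG dinucleotides. The 136 with more distant starts had 59.5% and 15, near the 58.3% and 14 of all 27305 promoters in the RefSeq table.

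The 6 divergent pairs below are shown by the bases that separate the 2 transcripts, because a single stretch of DNA here holds both starts. Each is read 5′ to 3′ on the strand of the antisense RNA in GRCh38.p14. Capitals mark the bases between the 2 start bases, and the 20 lower-case bases on each side are the first bases of each transcript, those of the sense gene on the left (as their reverse complement) and those of the antisense RNA on the right. EIF1B-AS1 (chr3:40309679-40309726, minus strand) and DDX11-AS1 (chr12:31073828-31073879, minus strand) have 8 and 12 bases between their starts. RNASEH1-AS1 (chr2:3558314-3558405, plus strand), RBM26-AS1 (chr13:79406236-79406328, plus strand) and PRKAR2A-AS1 (chr3:48847855-48847956, plus strand) have 52, 53 and 62. LMCD1-AS1 (chr3:8501639-8501842, minus strand) has 164. They hold 0, 2, 7, 5, 11 and 15 CG dinucleotides in that order.
EIF1B-AS1: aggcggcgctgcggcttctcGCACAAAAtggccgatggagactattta
DDX11-AS1: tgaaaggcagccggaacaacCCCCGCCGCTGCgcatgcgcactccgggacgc
RNASEH1-AS1: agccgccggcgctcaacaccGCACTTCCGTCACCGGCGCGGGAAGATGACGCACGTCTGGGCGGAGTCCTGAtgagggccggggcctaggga
RBM26-AS1: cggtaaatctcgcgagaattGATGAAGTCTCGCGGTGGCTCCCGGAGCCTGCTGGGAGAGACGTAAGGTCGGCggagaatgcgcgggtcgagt
PRKAR2A-AS1: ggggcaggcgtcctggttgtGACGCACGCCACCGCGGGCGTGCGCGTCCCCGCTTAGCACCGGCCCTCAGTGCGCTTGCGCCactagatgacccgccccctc
LMCD1-AS1: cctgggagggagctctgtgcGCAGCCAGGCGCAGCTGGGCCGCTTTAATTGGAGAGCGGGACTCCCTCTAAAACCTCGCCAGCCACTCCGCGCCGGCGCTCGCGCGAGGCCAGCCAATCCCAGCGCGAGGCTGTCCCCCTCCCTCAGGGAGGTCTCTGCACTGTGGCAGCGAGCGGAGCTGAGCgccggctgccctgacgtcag

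The 60-base probes below show what was measured for 5 antisense RNAs that differed between groups in 3 ways. Each is written 5′ to 3′ as the array file gives it, in lower case throughout, with hg19 coordinates. VLDLR-AS1 was read at chr9:2536362-2536421 and MAPT-AS1 at chr17:43921355-43921414, both on the minus strand and both higher with variant 1. C5orf66-AS1 was read at chr5:134374538-134374597 on the minus strand and PRKCQ-AS1 at chr10:6626088-6626147 on the plus strand, and both were lower with either variant. TGFB2-AS1, read at chr1:218517571-218517630 on the minus strand, was higher with variant 4.
VLDLR-AS1 probe: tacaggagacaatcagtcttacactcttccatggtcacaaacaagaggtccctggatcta
MAPT-AS1 probe: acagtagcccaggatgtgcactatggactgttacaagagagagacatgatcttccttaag
C5orf66-AS1 probe: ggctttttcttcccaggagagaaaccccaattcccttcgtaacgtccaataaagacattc
PRKCQ-AS1 probe: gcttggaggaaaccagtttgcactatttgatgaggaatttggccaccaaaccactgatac
TGFB2-AS1 probe: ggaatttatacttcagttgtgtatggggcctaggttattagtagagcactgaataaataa

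With variant 1, 85 of the 618 antisense probes were higher and 81 lower than in Control at an adjusted p under 0.05 (limma on all 6 arrays, Benjamini-Hochberg over 31855 tested probes). The higher ones were 13.8% of the antisense probes and the lower ones a slightly smaller share. Among all 26708 probes well above background on all 6 arrays, 14.3% were higher and 23.0% lower, so the antisense probes were less often called lower. Their median standard error was also larger, 0.098 against 0.077 for all these probes, and its part in the lower share was not tested. At 2-fold or more, 8 were higher and 3 lower, or 1.29% and 0.485% against a background of 1.72% and 0.764%. The median change of the antisense probes was -0.01 on the log2 scale, and that of all such probes was -0.06. Of the 351 sense genes with a tested probe, 45 were higher and 110 lower, or 12.8% and 31.3%, with a median of -0.11. Under quantile normalization the sense split was 55 higher and 83 lower, and that of the antisense probes 73 and 89. The 166 antisense calls fell to 59 without Control A, 65 without Control B, 72 without BT474-Var1 A and 78 without BT474-Var1 B, and the 155 sense calls to 52, 64, 82 and 77 in that order. The 11 sense genes at 2-fold or more fell to 7 without Control A.

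**Figure D1:**
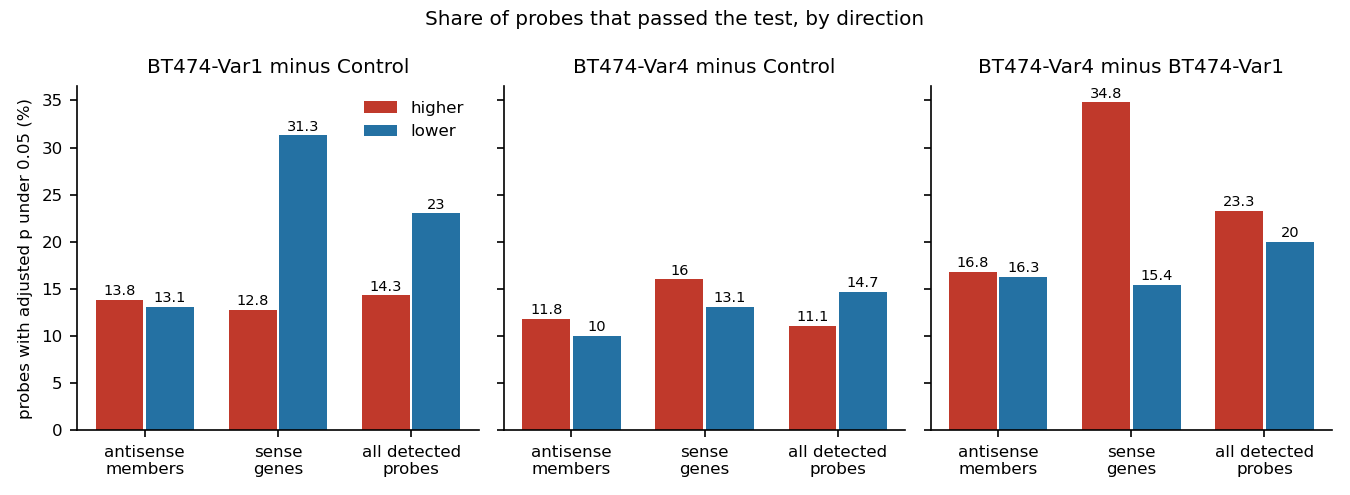
Share of probes with an adjusted p under 0.05 (vertical axis, percent), higher in red and lower in blue, for the 618 antisense probes, the 351 sense genes and the 26708 probes well above background on all 6 arrays, in the 3 comparisons. The antisense bars are nearly even in each comparison, while 31.3% of sense genes were lower with variant 1 than in Control and 34.8% higher with variant 4 than with variant 1.

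VLDLR-AS1 and VLDLR, the very low density lipoprotein receptor that takes up triglyceride-rich particles and binds reelin, rose together with variant 1. VLDLR-AS1 read -2.20 and -2.12 in Control, -0.38 and -0.40 in BT474-Var1, and -1.81 and -2.15 in BT474-Var4. Both BT474-Var1 arrays lay above the other 4, which overlapped. The rise over Control was 1.77 ± 0.12 on the log2 scale (SE, 3.40-fold, limma adjusted p = 0.00379), and BT474-Var4 did not pass against Control (0.17, adjusted p = 0.358).

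VLDLR itself read -1.47 and -1.64 in Control, -0.06 and -0.15 in BT474-Var1, and -1.47 and -1.52 in BT474-Var4, again with the BT474-Var1 arrays alone on top. Its change was 1.45 ± 0.08 (SE, 2.74-fold, limma adjusted p = 0.00304). A second VLDLR probe was above background on the 2 BT474-Var1 arrays only, at least 2.34-fold over Control. The starts of the pair lie 586 bp apart and the transcripts overlap at their 5′ ends. No other pair had both transcripts changed by 2-fold or more between BT474-Var1 and Control.

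PARD3-AS1, now named PARD3-DT, rose without its partner. It read -2.97 and -2.66 in Control, -0.72 and -1.12 in BT474-Var1, and -2.61 and -3.10 in BT474-Var4, so that both BT474-Var1 arrays lay apart on top. The change over Control was 1.89 ± 0.24 (SE, 3.72-fold, limma adjusted p = 0.00794). PARD3, a scaffold of the cell polarity complex, gave 0.11 (adjusted p = 0.293), and none of its 3 probes passed in any comparison.

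MAPT-AS1 also rose with variant 1, beside MAPT, which encodes the microtubule-binding protein tau. Its probe A_22_P00008706 read -2.08 and -2.13 in Control, -0.71 and -0.74 in BT474-Var1, and -2.08 and -2.05 in BT474-Var4. Only the BT474-Var1 pair stood apart, by 1.38 ± 0.05 over Control (SE, 2.61-fold, limma adjusted p = 0.00233). Its second probe read 0.57 higher (adjusted p = 0.14). One MAPT probe gave 0.18 (adjusted p = 0.302) and the other 0.71 (adjusted p = 0.00564). Between the variants MAPT-AS1 and both MAPT probes were lower with variant 4, MAPT by -0.63 (adjusted p = 0.0163, or 0.0546 to 0.073 without BT474-Var1 A or B) and -0.53 (adjusted p = 0.0076).

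RBM26-AS1, which starts 54 bp from RBM26, an RNA-binding protein gene, had 4 detected probes. A_32_P125803 read -3.56 and -2.83 in Control, -1.29 and -1.0 in BT474-Var1, and -1.94 and -1.71 in BT474-Var4, all 4 variant arrays above both Control arrays. It was 2.05 ± 0.28 higher with variant 1 (SE, 4.15-fold, limma adjusted p = 0.00924) and 1.37 ± 0.28 higher with variant 4 (2.59-fold, adjusted p = 0.0317). The variant 4 call was lost when any array but Control B was left out, with adjusted p from 0.0597 to 0.124. Of its other 3 probes, 2 passed in both comparisons with smaller changes, 0.36 and 0.56 with variant 1 and 0.57 and 0.79 with variant 4. RBM26 gave -0.11 and -0.19 and did not pass.

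SEMA3B-AS1 and SEMA3B, a secreted semaphorin that guides axons and restrains growth of some tumour cells, were higher with both variants. The antisense probe A_22_P00008012 read -3.72 and -3.66 in Control, -2.49 and -2.36 in BT474-Var1, and -2.26 and -2.19 in BT474-Var4. The variant arrays lay above Control without overlap, by 1.27 ± 0.07 (SE, limma adjusted p = 0.00296) and 1.47 ± 0.07 (adjusted p = 0.00293). A second probe agreed in direction, at 0.96 and 0.72.

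SEMA3B read 1.68 and 1.74 in Control, 2.70 and 2.65 in BT474-Var1, and 2.89 and 3.02 in BT474-Var4. The rises were 0.96 (limma adjusted p = 0.00379) and 1.24 (adjusted p = 0.00332), the latter 2.36-fold. SEMA3B-AS1 lies inside the SEMA3B gene on the other strand.

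C5orf66-AS1, listed by RefSeq as EPIST, fell furthest. It read 1.05 and 0.92 in Control, -0.22 and -0.15 in BT474-Var1, and -1.21 and -1.13 in BT474-Var4. The 3 groups did not overlap. Against Control the change was -1.17 ± 0.07 with variant 1 (SE, limma adjusted p = 0.00329) and -2.15 ± 0.07 with variant 4 (4.45-fold lower, adjusted p = 0.00203), and the variants differed by -0.99 (adjusted p = 0.00221). C5orf66, the gene around it, read between -0.97 and -0.63 on the 6 arrays and gave 0.10 (adjusted p = 0.23) and -0.21 (adjusted p = 0.0525) against Control.

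PRKCQ-AS1 followed the same order. Its probe A_32_P232559 read -0.06 and -0.14 in Control, -1.17 and -1.27 in BT474-Var1, and -1.69 and -1.78 in BT474-Var4, with no overlap between groups. The changes against Control were -1.12 (limma adjusted p = 0.00329) and -1.63 (adjusted p = 0.00262), and a second detected probe gave -0.92 and -1.37. PRKCQ, a protein kinase C best known from T-cell receptor signaling, had 1 probe that stood well above background on 0 arrays.

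The other large falls with variant 1 were SOX9-AS1, RNASEH1-AS1 and NOP14-AS1. SOX9-AS1 read 1.13 and 0.99 in Control, 0.00 and -0.08 in BT474-Var1, and 0.39 and 0.25 in BT474-Var4, with all 4 variant arrays below Control. It changed by -1.10 ± 0.08 with variant 1 (SE, limma adjusted p = 0.00409) and -0.74 with variant 4 (adjusted p = 0.00982). SOX9, a transcription factor of cartilage and of epithelial progenitors, changed by -0.75 with variant 1 (adjusted p = 0.0149), a call lost without Control A, Control B or BT474-Var1 A (adjusted p 0.0551 to 0.0734).

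RNASEH1-AS1, now RNASEH1-DT, starts 53 bp from RNASEH1, whose enzyme degrades the RNA strand of RNA-DNA hybrids. The antisense probe A_21_P0000800 read 0.95 and 0.99 in Control, -0.14 and 0.12 in BT474-Var1, and 0.45 and 0.66 in BT474-Var4. RNASEH1 read 2.27 and 2.29, then 1.39 and 1.37, then 2.03 and 2.06 in the same order. In both transcripts BT474-Var1 was lowest, BT474-Var4 lay between and no groups overlapped. The changes with variant 1 were -0.98 ± 0.12 for the antisense RNA (SE, limma adjusted p = 0.00805) and -0.90 ± 0.05 for the sense gene (adjusted p = 0.00294). The second RNASEH1-AS1 probe changed by -0.63 (adjusted p = 0.024).

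NOP14-AS1 overlaps the 3′ end of NOP14, which acts in assembly of the small ribosomal subunit. One probe changed by -0.97 ± 0.13 with variant 1 (SE, limma adjusted p = 0.00922) and the other detected probe gave 0.04 (adjusted p = 0.886). NOP14 gave -0.20 (adjusted p = 0.0615).

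**Figure D2:**
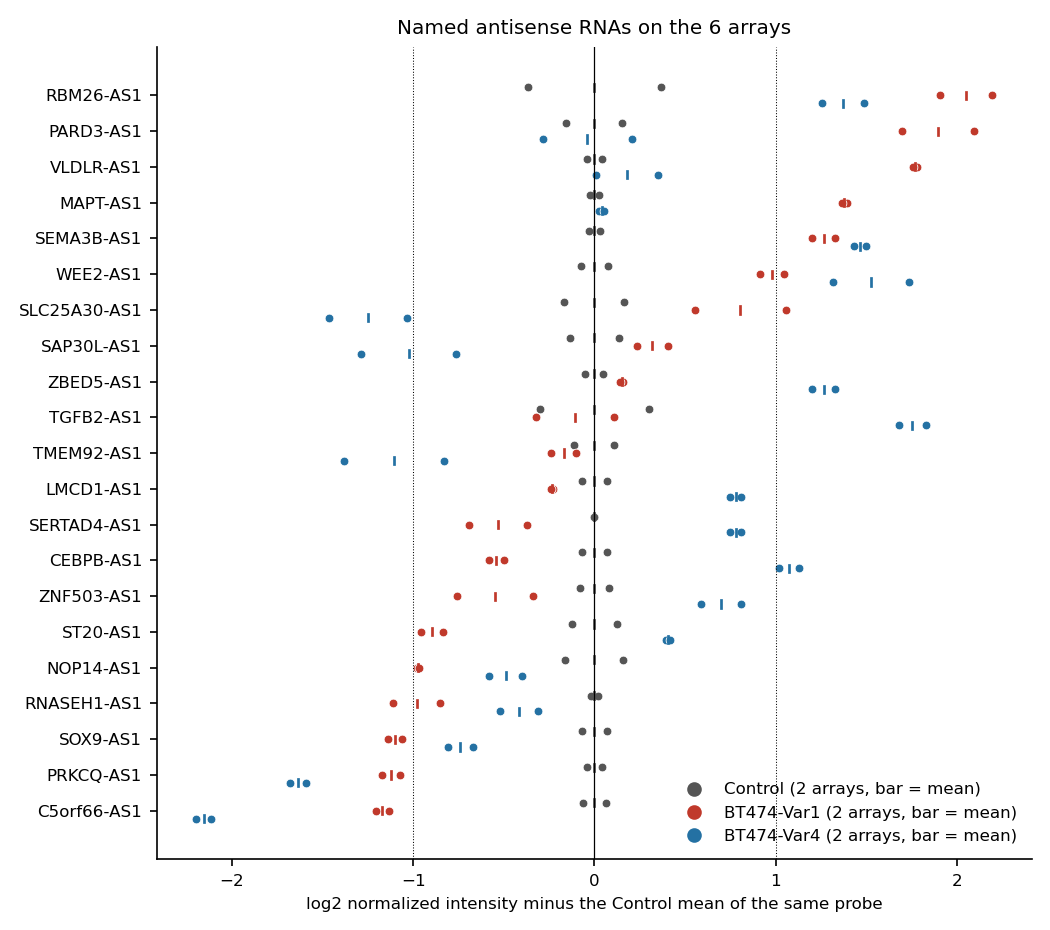
The named antisense RNAs on the 6 arrays, each dot 1 array and each bar a group mean of 2 arrays. The horizontal axis is the log2 normalized intensity minus the Control mean of the same probe, and dotted lines mark a 2-fold difference. BT474-Var1 sits 1.38 to 2.05 above Control for MAPT-AS1, VLDLR-AS1, PARD3-AS1 and RBM26-AS1, and BT474-Var4 lies 2.15 below it for C5orf66-AS1.

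With variant 4, 73 antisense probes were higher and 62 lower than in Control, or 11.8% and 10.0% against a background of 11.1% and 14.7%. At 2-fold or more the counts were 10 and 7, or 1.62% and 1.13% against 1.39% and 0.7%. The median antisense change was -0.02. Of the 351 sense genes, 56 were higher and 46 lower, and 11 passed 2-fold, 8 of them higher. These counts moved with the arrays: leaving out Control A cut the antisense calls at any size to 29 and Control B to 34, and leaving out BT474-Var4 A or B gave 48 or 40. The 102 sense calls fell to 19 or 16 without Control A or B, to 66 without either BT474-Var1 array and to 35 or 30 without BT474-Var4 A or B. The 17 antisense probes at 2-fold or more fell to 11 without Control B.

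TGFB2-AS1 had the largest rise. It read -3.13 and -2.53 in Control, -2.72 and -3.15 in BT474-Var1, and -1.0 and -1.15 in BT474-Var4, whose 2 arrays stood alone above the rest. The rise over Control was 1.76 ± 0.25 (SE, 3.38-fold, limma adjusted p = 0.0152) and that over BT474-Var1 1.86 ± 0.25 (3.64-fold, adjusted p = 0.00755). Against Control it missed the threshold without Control A, BT474-Var4 A or BT474-Var4 B (adjusted p 0.0576 to 0.069). TGFB2, the transforming growth factor beta 2 ligand, starts 342 bp away on the other strand, and its probe was well above background on 1 array and was not tested.

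WEE2-AS1 and ZBED5-AS1 also rose. WEE2-AS1 read -4.04 and -4.19 in Control, -3.20 and -3.07 in BT474-Var1, and -2.38 and -2.80 in BT474-Var4, the Control arrays lowest in each comparison. It gained 1.53 ± 0.16 with variant 4 (SE, limma adjusted p = 0.00827), which did not pass without Control A or Control B (adjusted p 0.051 to 0.0564). Its other detected probe gave 0.57 (adjusted p = 0.0963). WEE2, an oocyte kinase that inhibits CDK1, was above background in Control only and entered the test through that group alone. The adjusted p-values of WEE2 therefore add no support to its folds. It was at least 1.27-fold higher than in BT474-Var1 (limma adjusted p = 0.0351) and at least 1.17-fold higher than in BT474-Var4 (adjusted p = 0.0599).

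ZBED5-AS1 read -1.86 and -1.96 in Control, -1.75 and -1.77 in BT474-Var1, and -0.71 and -0.58 in BT474-Var4, the last clear of the other 4. Its rise was 1.27 over Control (limma adjusted p = 0.00332) and 1.12 over BT474-Var1 (adjusted p = 0.00172). A second probe gave 1.20 and 0.66, and was also higher with variant 1 than in Control (0.55, adjusted p = 0.014). ZBED5, derived from a DNA transposon, starts 164 bp away and gave 0.11 with variant 4 against Control (adjusted p = 0.173). It was lower with variant 1 than in Control (-0.25, adjusted p = 0.0232) and higher with variant 4 than with variant 1 (0.37, adjusted p = 0.00792).

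SLC25A30-AS1, TMEM92-AS1 and SAP30L-AS1 fell with variant 4 in calls that depended on single arrays. SLC25A30-AS1 read -2.43 and -2.10 in Control, -1.71 and -1.21 in BT474-Var1, and -3.73 and -3.30 in BT474-Var4. The 3 groups did not overlap, with BT474-Var4 lowest by 1.25 against Control (log2 change -1.25 ± 0.25 SE, limma adjusted p = 0.0312) and by 2.05 against BT474-Var1 (-2.05 ± 0.25, 4.15-fold, adjusted p = 0.00596). The first of these calls was lost without Control A, Control B, BT474-Var4 A or BT474-Var4 B (adjusted p 0.0686 to 0.131). SLC25A30, a mitochondrial carrier, gave -0.27 against Control (adjusted p = 0.0377), a call lost whichever array was left out (adjusted p 0.0703 to 0.147).

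TMEM92-AS1 read -1.76 and -1.54 in Control, -1.75 and -1.89 in BT474-Var1, and -2.48 and -3.03 in BT474-Var4, which lay lowest. Its change was -1.10 ± 0.21 (SE, limma adjusted p = 0.0274), lost whenever any array but BT474-Var4 A was left out (adjusted p 0.0568 to 0.122), and its other detected probe gave -0.50 (adjusted p = 0.364). TMEM92 was above background in Control only and also entered the test through that group alone, so its adjusted p-values add no support to its folds. It was at least 1.22-fold higher than in BT474-Var1 (adjusted p = 0.00926) and at least 1.12-fold higher than in BT474-Var4 (adjusted p = 0.0426, or 0.12 to 0.165 without any Control or BT474-Var4 array).

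SAP30L-AS1 starts 175 bp from SAP30L, a subunit of the Sin3 histone deacetylase complex. It changed by -1.03 ± 0.21 against Control (SE, limma adjusted p = 0.0318), lost in 5 of 6 leave-one-out fits (all but that without BT474-Var4 B, adjusted p 0.062 to 0.134), and by -1.35 against BT474-Var1 (adjusted p = 0.0102, or 0.0516 without BT474-Var1 A). SAP30L did not pass in any comparison with either probe.

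Between the variants, 104 antisense probes were higher and 101 lower with variant 4 than with variant 1, or 16.8% and 16.3% against a background of 23.3% and 20%. At 2-fold or more the counts were 8 and 14, or 1.29% and 2.27% against 2.0% and 2.49%. Other scalings moved this split, to 135 higher and 78 lower under quantile normalization and to 114 and 167 under normexp background correction. Among the sense genes 122 were higher and 54 lower, or 34.8% and 15.4%, and both scalings kept more of them higher than lower (107 and 59, 154 and 67). The 205 antisense calls fell to 122 or 121 without BT474-Var1 A or B and to 115 or 125 without BT474-Var4 A or B. TGFB2-AS1, SLC25A30-AS1, PARD3-AS1 (-1.94 ± 0.24, SE, limma adjusted p = 0.00598), VLDLR-AS1 (-1.59 ± 0.12, adjusted p = 0.00246) and MAPT-AS1 (-1.34 ± 0.05, adjusted p = 0.0012) were among the largest differences.

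CEBPB-AS1 differed by 1.61. It read -0.27 and -0.41 in Control, -0.92 and -0.84 in BT474-Var1, and 0.79 and 0.68 in BT474-Var4, the variants on either side of Control with no overlap. The differences from Control were -0.54 (limma adjusted p = 0.012) and 1.08 (adjusted p = 0.00497), and that between variants was 1.61 ± 0.08 (SE, 3.06-fold, adjusted p = 0.00133). CEBPB, a leucine zipper transcription factor, read 4.97 and 4.96, then 4.45 and 4.46, then 5.12 and 5.04, and differed between variants by 0.63 (adjusted p = 0.00291).

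SERTAD4-AS1 had the same order. It read -0.91 and -0.91 in Control, -1.60 and -1.28 in BT474-Var1, and -0.10 and -0.16 in BT474-Var4, a difference between variants of 1.31 ± 0.12 (SE, limma adjusted p = 0.00325). SERTAD4 differed between variants by 0.93 ± 0.05 (adjusted p = 0.00148), and was lower with variant 1 than in Control by 0.75 (log2 change -0.75, adjusted p = 0.00376).

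LMCD1-AS1 and LMCD1, a LIM-domain transcriptional cofactor, were both more than 2-fold higher with variant 4 than with variant 1. LMCD1-AS1 read -3.05 and -3.19 in Control, -3.35 and -3.36 in BT474-Var1, and -2.31 and -2.37 in BT474-Var4. LMCD1 read 2.63 and 2.67, then 2.28 and 2.34, then 3.81 and 3.71. The BT474-Var4 arrays were highest in both and no groups overlapped, with differences between variants of 1.01 ± 0.07 (SE, limma adjusted p = 0.00192) and 1.45 ± 0.06 (adjusted p = 0.0012). Their starts lie 165 bp apart.

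ST20-AS1 and ZNF503-AS1 complete the largest rises from variant 1 to variant 4. ST20-AS1 read -2.33 and -2.08 in Control, -3.16 and -3.04 in BT474-Var1, and -1.81 and -1.79 in BT474-Var4, and the variants differed by 1.3 ± 0.10 (SE, limma adjusted p = 0.00249). The groups did not overlap, and ST20 had no probe of its own to set beside it. ZNF503-AS1 differed by 1.25 ± 0.17 (adjusted p = 0.00794). ZNF503, a zinc finger repressor, gave 0.21 with one probe (adjusted p = 0.0634) and -0.45 with the other (adjusted p = 0.0481).

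In a smaller number of pairs the transcripts moved apart. EIF1B-AS1 and EIF1B, a translation initiation factor, start 9 bp from each other. EIF1B-AS1 read -1.03 and -1.11 in Control, -0.58 and -0.58 in BT474-Var1, and -1.78 and -1.90 in BT474-Var4. EIF1B read 1.92 and 1.90, then 1.61 and 1.61, then 2.15 and 2.13. The antisense order was thus variant 1, Control, variant 4 from highest to lowest, and the sense order the reverse, with no overlap in either. All 3 comparisons passed for both: 0.49 (limma adjusted p = 0.00977), -0.77 (adjusted p = 0.00606) and -1.26 ± 0.07 (SE, adjusted p = 0.00141) for the antisense RNA, and -0.30 (adjusted p = 0.0136), 0.23 (adjusted p = 0.0338) and 0.53 (adjusted p = 0.00318) for the sense gene.

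NEBL-AS1 also moved opposite to 1 probe of NEBL, which encodes the actin-binding protein nebulette. It read -0.67 and -0.64 in Control, 0.45 and 0.14 in BT474-Var1, and -0.70 and -0.90 in BT474-Var4, highest with variant 1. The change with variant 1 was 0.95 ± 0.13 (SE, limma adjusted p = 0.00939) for the antisense RNA and -0.48 (adjusted p = 0.00684) for NEBL, and the differences between variants were -1.10 (adjusted p = 0.00556) and 0.69 (adjusted p = 0.00253). The other tested NEBL probe gave 0.46 (adjusted p = 0.114) and -0.46 (adjusted p = 0.101), so the opposite movement was seen with 1 of 2 sense probes. The EIF1B-AS1, NEBL-AS1 and PRKAR2A-AS1 pairs, and KMT2E-AS1 and TRAF3IP2-AS1 further on, were picked for description after their values were seen.

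**Figure D3:**
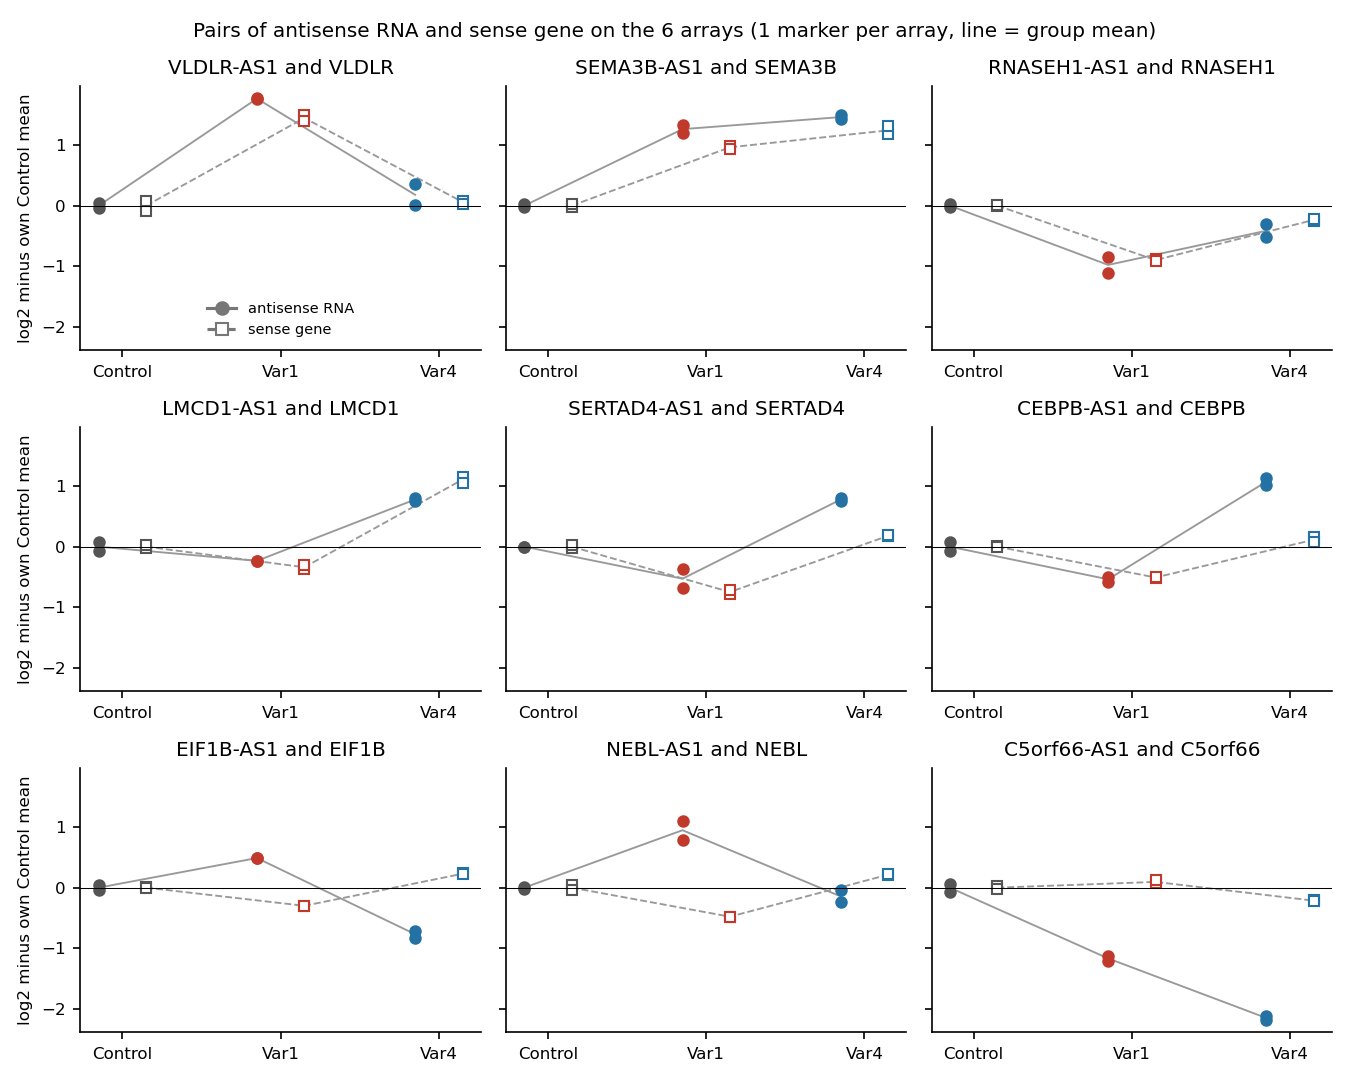
The 9 selected pairs on the 6 arrays, with log2 normalized intensity minus the transcript's own Control mean on the vertical axis. Filled circles are arrays of the antisense RNA, open squares those of the sense gene, and lines join group means: the first 6 pairs move the same way between the variants or from Control, EIF1B-AS1 and NEBL-AS1 move opposite to the sense probe shown, and C5orf66-AS1 falls by 2.15 while C5orf66 changes by 0.10 and -0.21.

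Among pairs in which both transcripts passed, shared direction was more frequent than opposite direction. Over all pairs the rank correlation was 0.23 with variant 1, 0.18 with variant 4 and 0.23 between the variants. How often unrelated probes share a direction was not measured, and sense directions were uneven (45 higher and 110 lower with variant 1). In each comparison the sense gene passed alone in more pairs than both passed. The antisense RNA did so only with variant 4 against Control. With 1 probe per antisense RNA there were 356 pairs with a tested sense probe. With variant 1 against Control, both transcripts passed in 55 pairs, of which 42 changed in the same direction (15 higher, 27 lower) and 13 in opposite directions. The antisense RNA alone passed in 46 pairs, the sense gene alone in 102 and neither in 153. With variant 4 against Control the antisense RNA alone passed in 48 pairs, the sense gene alone in 74 and neither in 203. Both passed in 31, 24 in the same direction and 7 in opposite directions. Between the variants the antisense RNA alone passed in 53 pairs, the sense gene alone in 113 and neither in 125. Both passed in 65, 45 in the same direction and 20 in opposite directions. Each comparison shares a group with the next, so these counts are not independent. The number of pairs in which both passed also moved with the arrays. The count for variant 4 against Control fell to 1 without Control A or B, 9 without either BT474-Var1 array, and 4 or 2 without BT474-Var4 A or B. That for variant 1 fell to 7 or 9 without Control A or B and to 19 or 15 without BT474-Var1 A or B, and that between variants to between 29 and 34 without any 1 of their arrays.

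The counts were also taken apart by the distance between starts. Among 130 pairs with starts within 1 kb, both passed in 21, 11 and 26 pairs in the 3 comparisons, with the same direction in 16, 9 and 17. Among 115 pairs with more distant starts, both passed in 15, 11 and 17, with the same direction in 12, 8 and 13. The rank correlation of antisense with sense changes was 0.31, 0.32 and 0.25 across the close pairs and 0.19, 0.20 and 0.21 across the distant ones, over points measured on the same arrays. Whether close and distant pairs differ was not tested.

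**Figure D4:**
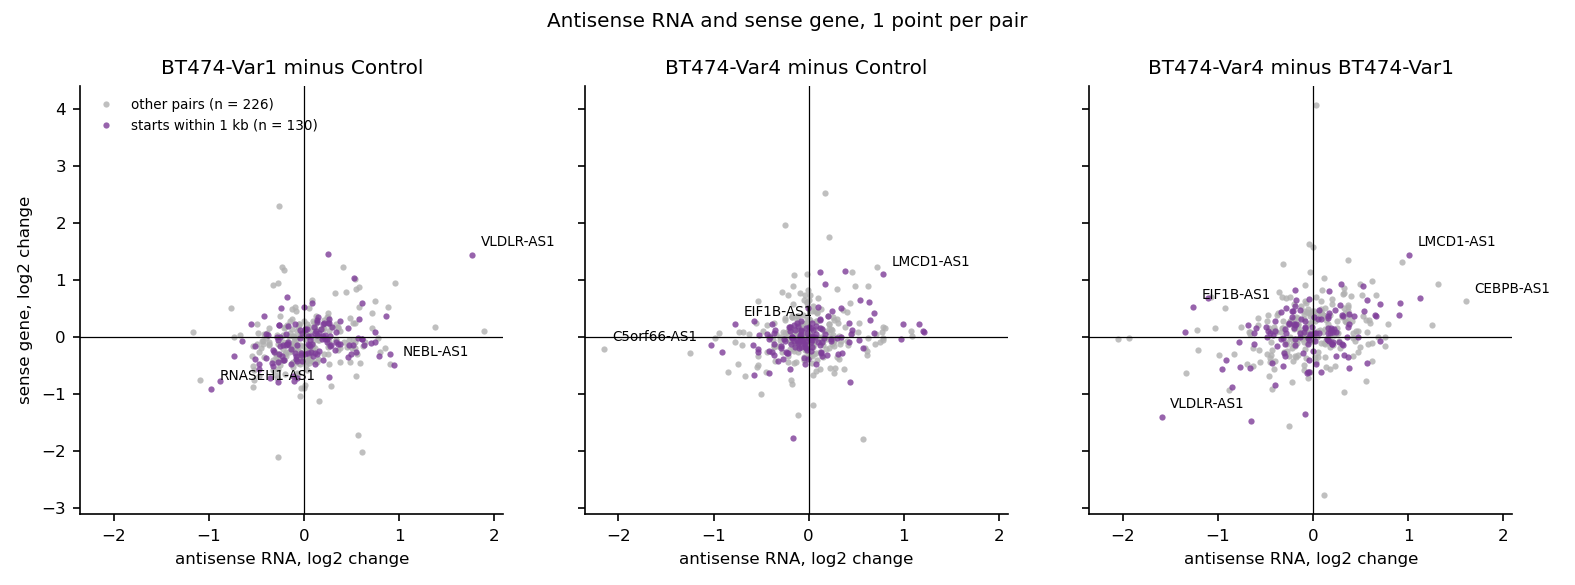
Log2 change of the antisense RNA (horizontal axis) against that of its sense gene (vertical axis) for 356 pairs in the 3 comparisons, 1 point per pair, with the 130 pairs whose starts lie within 1 kb in purple. Points spread around the origin, with VLDLR-AS1 and LMCD1-AS1 far out in the same-direction quadrants and EIF1B-AS1 among the opposite ones.

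The next 2 pairs, shown above by sequence, also start close together. DDX11-AS1 and DDX11, a DNA helicase gene, start 13 bp apart. DDX11-AS1 read -1.36 and -1.30 in Control, -1.93 and -2.02 in BT474-Var1, and -1.97 and -1.82 in BT474-Var4, with all 4 variant arrays below Control. It changed by -0.65 (limma adjusted p = 0.0074) and -0.57 (adjusted p = 0.0141), whereas DDX11 gave -0.06 with variant 1 (adjusted p = 0.498) and fell by 0.66 with variant 4 (log2 change -0.66, adjusted p = 0.00639). PRKAR2A-AS1 starts 63 bp from PRKAR2A, a regulatory subunit of protein kinase A, and both rose with variant 4, by 0.64 (limma adjusted p = 0.00755) and 0.62 (adjusted p = 0.0268).

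Different probes of one antisense RNA did not always move together. The same counts for other genes with several probes are not given here, so nothing particular to antisense RNAs can be read from them. Of the 421 antisense RNAs, 140 had 2 or more detected probes. At least 2 probes passed in the same direction for 18, 16 and 25 of them in the 3 comparisons, exactly 1 passed for 42, 38 and 47, and probes passed in both directions for 6, 4 and 3. KMT2E-AS1, beside the chromatin regulator KMT2E, had 4 probes whose differences between variants ran from -1.30 to 0.57, with 1 passing higher and 2 lower. TRAF3IP2-AS1, beside the gene of an adaptor of interleukin-17 signaling, had 4 probes ranging from -0.93 to 0.62, with 2 passing higher and 1 lower.

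VIM-AS1 is a further case. It overlaps the start of VIM, the intermediate filament gene of mesenchymal cells. Its probe A_21_P0014248 read -0.45 and -0.42 in Control, -1.37 and -1.33 in BT474-Var1, and -0.65 and -0.64 in BT474-Var4, lowest with variant 1. The changes were -0.92 (limma adjusted p = 0.00294) with variant 1 and -0.21 (adjusted p = 0.044) with variant 4. A_21_P0014785, its other probe, gave -0.04 (adjusted p = 0.777) and -0.36 (adjusted p = 0.0523). VIM fell by 1.03 with variant 1 (log2 change -1.03, adjusted p = 0.00396) and gave 0.26 with variant 4 (adjusted p = 0.0784). Between the variants the VIM-AS1 probes passed in opposite directions, A_21_P0014248 at 0.71 (adjusted p = 0.00203) and A_21_P0014785 at -0.32 (adjusted p = 0.0477), while VIM differed by 1.29 (adjusted p = 0.00165).

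Of 55 well-studied antisense RNAs listed from general knowledge, 37 had detected probes, 58 in all. With variant 1, 6 of these probes were higher and 8 lower than in Control, with variant 4, 2 and 8, and between the variants 8 were higher and 9 lower with variant 4. The shares over all probes above background on every array, given above, were 14.3% and 23.0%, 11.1% and 14.7%, and 23.3% and 20% for the 3 comparisons. OIP5-AS1, an abundant RNA also called cyrano that binds HuR, was lower in both variants with both probes, at -0.20 and -0.56 with variant 1 and -0.35 and -0.33 with variant 4. OIP5, a centromere protein gene that it overlaps at the 3′ end, changed by -0.64 (limma adjusted p = 0.00606) and -0.42 (adjusted p = 0.02).

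CBR3-AS1, named after a carbonyl reductase gene, was higher with variant 4 in both probes. Its probe A_21_P0000827 read 0.83 and 0.82 in Control, 1.15 and 1.16 in BT474-Var1, and 1.53 and 1.62 in BT474-Var4, rising by 0.75 (limma adjusted p = 0.00496). CBR3 gave -0.08 (adjusted p = 0.318). SLC2A1-AS1, now SLC2A1-DT, starts 181 bp from SLC2A1, the glucose transporter GLUT1, and both were higher with variant 1, by 0.86 (adjusted p = 0.026) and 0.38 (adjusted p = 0.0107). KTN1-AS1 and KTN1, a kinesin-binding protein of the endoplasmic reticulum, were both lower with variant 1, by 0.34 (log2 change -0.34, limma adjusted p = 0.0386) and 0.45 (-0.45, adjusted p = 0.0162), and a second KTN1-AS1 probe gave -0.35 (adjusted p = 0.157).

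PDCD4-AS1 read 2.17 and 2.01 in Control, 1.36 and 1.33 in BT474-Var1, and 2.0 and 1.94 in BT474-Var4, lower with variant 1 by 0.74 (log2 change -0.74, limma adjusted p = 0.00549), while its other probe gave -0.39 (adjusted p = 0.0522). PDCD4, an inhibitor of translation initiation, gave 0.01 (adjusted p = 0.936). One FOXD3-AS1 probe lay between 5.28 and 5.60 on all 6 arrays and did not pass, and the other differed between variants alone (-0.67, limma adjusted p = 0.0386). FOXD3, a forkhead factor gene that starts 109 bp away and whose probe was above background on 5 arrays, changed by -1.76 with variant 4 (adjusted p = 0.00546). GATA3-AS1, HIF1A-AS1, SBF2-AS1, FEZF1-AS1 and TP73-AS1 did not pass in any comparison with any detected probe.

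The enzymes and other factors that handle double-stranded RNA, small RNAs and silent chromatin were measured as a list of 27 genes. All were above background on all 6 arrays. With variant 1, 2 were higher and 12 lower, with a median of -0.21, with variant 4, 2 and 6, with a median of -0.06, and between variants 9 were higher and 3 lower with variant 4, with a median of 0.07. Over all probes above background on every array, 23.0% were lower with variant 1 and 14.7% with variant 4, with medians of -0.06 and -0.05. AGO2, the slicer of RNA interference, changed by -0.47 (limma adjusted p = 0.00565) and -0.22 (adjusted p = 0.0395). The DNA methyltransferases DNMT3B (-0.67 and -0.75, adjusted p = 0.00413 and 0.00428) and DNMT1 (-0.54 and -0.32, adjusted p = 0.00634 and 0.0273) and the Polycomb methyltransferase EZH2 (-0.34 and -0.56, adjusted p = 0.0154 and 0.0081) were lower with both variants. AGO4 was higher with variant 1 (0.57, adjusted p = 0.0226), and EIF2AK2, the kinase activated by double-stranded RNA, with variant 4 (0.35, adjusted p = 0.0215). DICER1, DNMT3A, NONO and ADAR, the adenosine deaminase of double-stranded RNA, did not pass in any comparison.

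The precision of these values was that of 2 arrays per group. The median standard error of a log2 change was 0.098 for the antisense probes, 0.069 for the sense genes and 0.077 for all probes above background on every array, and the median absolute change of the antisense probes was 0.21, 0.19 and 0.25 in the 3 comparisons. The mean signal of the 618 probes over the 6 arrays ran from -3.64 (SEPT4-AS1) to 7.55 (LRRC75A-AS1), with a median of -1.07. Antisense probes above background on 5 arrays only, just outside the rule, averaged between -3.98 and -2.42.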

How the data were processed

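Total RNA of BT474 cells (3 groups, 2 samples each) was labelled with Cy3 and hybridised to Agilent one-colour arrays. The authors deposited scanner files made with Agilent Feature Extraction (version 11.5.1.1 per the labels), which hold a processed intensity per spot after background subtraction, and a table of log2 values that, per the study's methods, had been shifted by the 75th percentile of each array. That deposited log2 table was used as an alternative only, and each of its columns matched its own array best. The array design names hg19.

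The deposited intensities were taken as log2 and the 75th percentile of the non-control probes was subtracted from each array. Outlier spots were dropped and spots of a probe averaged. The 31855 probes that both arrays of any group showed well above background entered a test with lmFit and eBayes in limma 3.58.1 (R 4.3.3), all groups in 1 fit, with Benjamini-Hochberg adjustment over all of them. A call needed an adjusted p under 0.05, or that and 2-fold. Fits were tested on simulated data. A sense gene was represented by its brightest tested probe, and counts over pairs by the brightest probe of each antisense RNA. Antisense and sense changes were not tested against each other. For a group without signal above background the fold is a lower bound: the brighter group's mean over the dim group's mean of, per array, the higher of the detection floor and the probe's own signal. Positions and start sites came from RefSeq (GRCh38.p14), matched for 420 of 421 antisense RNAs. The match used the probe's own RefSeq accession where it had one, and otherwise the symbol or a synonym.

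Named were, per comparison, the 5 largest rises and 5 largest falls among antisense probes that passed without overlap between groups (1 per RNA), pairs with both transcripts changed by 2-fold or more, and members of a list of well-studied antisense RNAs. EIF1B-AS1, NEBL-AS1, PRKAR2A-AS1, KMT2E-AS1 and TRAF3IP2-AS1 were added after their values were seen. Members, lists and tests were chosen with earlier results of these data known. Alternatives were quantile normalization, normexp background correction, other filters, the deposited table, a trended robust fit, 2-group fits, the methods' analysis of variance, leaving out each array, and A and B as a replicate block. The letters did not pair the samples (correlation of deviations -0.015 to 0.045).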

Additional observations from a re-analysis of the deposited data

Results flagged for a closer look

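In 16 of the 618 antisense probes, each of a different RNA, the variants differed from Control in opposite directions, with all 3 comparisons passing. That is 2.59%, against 3.93% of all 26708 probes above background on all 6 arrays. The log2 difference, variant 4 minus variant 1, was 1.61 for CEBPB-AS1, 1.31 for SERTAD4-AS1, 0.94 for RBPMS-AS1, 0.9 for ADNP-AS1, 0.7 for HOXC-AS3, 0.59 for DGUOK-AS1, 0.58 for SDCBP2-AS1 and 0.54 for PSMG3-AS1. It was -1.26 for EIF1B-AS1, -1.22 for RAB6C-AS1, -0.93 for TRAF3IP2-AS1, -0.88 for IDI2-AS1, -0.77 for TOPORS-AS1, -0.75 for NUTM2B-AS1, -0.7 for LHX4-AS1 and -0.46 for MIF-AS1. No other detected probe of these RNAs met this rule. For ADNP-AS1, IDI2-AS1, RAB6C-AS1 and SDCBP2-AS1 the second probe kept the signs but did not pass with variant 4 against Control. It gave 0.09, -0.17, -0.02 and 0.09 there, in that order. Between the variants the 4 TRAF3IP2-AS1 probes ran from -0.93 to 0.62, with 2 passing higher and 1 lower. The 4 NUTM2B-AS1 probes ran from -0.75 to 0.36. With variant 1 against Control 1 PSMG3-AS1 probe passed higher and 1 lower.

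Outside the detection rule, 63 probes for 60 antisense RNAs were detected in some group and undetected in another. Some were detected with either or both variants and not in Control, such as those described below and probes of BZRAP1-AS1 and PABPC5-AS1. Others went the opposite way, detected in Control and with neither variant, among them probes of ZNF252P-AS1, ADD3-AS1, FOCAD-AS1 and AGBL5-AS1. How many went each way is not given here. The probes described below entered the test only through the groups where they were bright, so the adjusted p-values add no support to the folds. The STARD4-AS1 probe A_21_P0000900 read -4.17 and -4.40 in Control, 0.95 and 0.92 in BT474-Var1, and -6.30 and -5.70 in BT474-Var4, and was not well above background in Control or BT474-Var4. BT474-Var1 was at least 37.1-fold higher than Control (limma adjusted p = 0.00254) and at least 28.5-fold higher than BT474-Var4 (adjusted p = 0.00118). BSN-AS2 was at least 2.02-fold higher than Control with variant 1 (adjusted p = 0.00995) and at least 2.37-fold higher with variant 4 (adjusted p = 0.0117). A PITRM1-AS1 probe was at least 3.38-fold higher with variant 1 than in Control (adjusted p = 0.0222) and at least 2.43-fold higher than with variant 4 (adjusted p = 0.0129), while a second PITRM1-AS1 probe, above background on all 6 arrays, did not pass.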

How the results depend on the processing

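All 31 log2 changes of the antisense RNAs named by size or as pairs kept their direction under every alternative, and all 31 stayed past the threshold under quantile normalization, normexp background correction, the stricter filter, the deposited table and the trended robust fit. Without a filter on dim probes 7 of them missed it, under the methods' analysis of variance 5, in fits of 2 groups 3, and with 1 array left out between 3 and 6. Of 26 changes of sense genes 5 took the other sign under at least 1 alternative, and 0 of these 5 had passed as reported (limma). They were those of NOP14, PARD3, SAP30L, SLC25A30 and ZNF503, of which ZNF503 passed in the other direction, at -0.45 between variants with its other probe. Depth is limited here by 2 arrays a group and 3 residual degrees of freedom, and 339 antisense probes were above background on some arrays only. The causes of the shifts below were not tested, except that normexp with an offset of 50 shrinks differences by construction.

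At 2-fold or more, normexp left 0 antisense probes for variant 1 against Control (11 as reported; limma, 276 at an unadjusted p under 0.05), 2 for variant 4 (17) and 1 between variants (22), and 2 (11), 4 (11) and 7 (14) sense genes. Quantile normalization gave 17 antisense probes for variant 1 and 22 sense genes between variants. Only probes above background on all arrays being tested, 7 sense genes were called for variant 1. Without a filter, 7 antisense probes and 7 sense genes were called for variant 4, and the methods' analysis of variance called 8 antisense probes. With 1 array left out, antisense probes ranged from 11 to 15 for variant 1, 11 to 13 for variant 4 and 21 to 26 between variants, and sense genes from 7 to 12, 8 to 10 and 14 to 16.

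At an adjusted p under 0.05 of any size, the counts without a filter were 33, 9 and 75 antisense probes (166, 135 and 205 as reported, in the same order of comparisons) and 32, 8 and 66 sense genes (155, 102 and 176). The analysis of variance gave 108 and 70 antisense probes for variant 1 and variant 4. For variant 4, sense genes numbered 158 under normexp, 167 with the trended robust fit and 66 in the fit of 2 groups. With 1 array left out, antisense probes ranged from 59 to 139, 29 to 91 and 115 to 172, and sense genes from 52 to 133, 16 to 66 and 120 to 147.

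The replicate letters did not pair the samples. With the letter as a replicate block, 132, 83 and 174 antisense probes and 119, 60 and 153 sense genes passed at any size, and 11, 12 and 21 antisense probes and 10, 10 and 13 sense genes at 2-fold. Of the 31 named antisense changes 2 missed the threshold under the block.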
